A study of Rattus norvegicus with 4 samples.

Results

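Genes for lysosomal enzymes, their helpers and lysosomal membrane proteins were followed in cultured rat oligodendrocyte precursor cells, a proliferating cell type from which myelin-forming oligodendrocytes develop. The list held 37 genes: 7 cysteine cathepsins, 4 serine and aspartic proteases, 9 glycosidases, 3 sulfatases, 5 genes of lipid breakdown, and 9 for membrane proteins, cholesterol transport and regulation. Of these, 34 were named by a probe through its RefSeq accession, since the scanner files carry accessions and no gene symbols, and no expression values are given for Gla, Sgsh and Naglu. The brightest probe stood for each gene and was kept where its signal was well above background on at least 2 of the 4 arrays. This left 31 genes of 23155 features tested, and all 31 were well above background on all 4 arrays. Just outside the limit lay Ctsk and Ctss, each well above background on 1 array, and Ctse on 0.

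Both groups consisted of precursor cells from the cortex of rats at postnatal day 2, grown with bFGF and PDGF for 3 days and transfected with RNA at 50 nM by Lipofectamine. In the group called miR-125a-3p here the RNA was a mimic of that microRNA, and in the group called miR-neg it was a negative control RNA. Total RNA was taken 48 h later and hybridised to 1-colour Agilent arrays, 1 array per sample and 2 samples per group. The labels give the cells as oligodendrocytes at 2 days in vitro, carry the numbers 1 and 2 within each group, and do not say whether samples came from separate animals or cultures. P-values therefore measure the spread between these samples, which may be technical, and a group of 2 limits their precision.

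Lysosomes are acidic compartments in which hydrolases break down proteins, sugars, lipids and nucleic acids that arrive by endocytosis or autophagy. Cathepsins are their proteases, LAMP proteins line their membrane, and the transcription factor TFEB raises many lysosomal genes by binding a short E-box element known as CLEAR. In oligodendrocytes, lysosomes and late endosomes also store and deliver myelin proteolipid protein, and loss of arylsulfatase A or of lysosomal sphingolipid enzymes harms myelin.

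The mature sequence of the transfected microRNA is shown because it defines the treatment. Its seed, bases 2 to 8, is in capitals (RefSeq, GRCr8, chr1:67350727-67350748, plus strand).
rno-miR-125a-3p: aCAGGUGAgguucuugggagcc

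RefSeq promoters of the GRCr8 assembly, from 250 bases before to 50 after a gene's start, were at hand for 30 of the 37 genes. The motif GTCACGTG, read on both strands, is the part of the CLEAR element searched, and it contains the plain E-box CACGTG. It was present in 6 of the 30 promoters (Ctsd, Gaa, Glb1, Lamp1, Mcoln1 and Sgsh) and in 1.85% of all 33469 promoters. CACGTG was present in 7 of the 30, with Cd63 added, and in 6.42% of all. The stretches around the motif in the 5 measured genes are shown, with the motif or its reverse complement in capitals, because the changes of these genes are set out beside it.
Ctsd, chr1:206968804-206968998, minus strand: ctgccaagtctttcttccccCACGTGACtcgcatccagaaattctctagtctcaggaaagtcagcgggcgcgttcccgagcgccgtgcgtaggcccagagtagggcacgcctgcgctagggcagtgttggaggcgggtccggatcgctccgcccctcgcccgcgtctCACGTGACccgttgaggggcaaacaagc
Gaa, chr10:105028268-105028315, plus strand: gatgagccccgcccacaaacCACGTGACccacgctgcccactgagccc
Glb1, chr8:122963596-122963643, plus strand: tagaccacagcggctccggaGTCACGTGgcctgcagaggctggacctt
Lamp1, chr16:83075074-83075250, minus strand: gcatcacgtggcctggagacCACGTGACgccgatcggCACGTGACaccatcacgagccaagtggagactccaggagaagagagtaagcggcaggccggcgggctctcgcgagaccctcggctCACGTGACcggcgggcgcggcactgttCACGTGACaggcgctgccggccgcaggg
Mcoln1, chr12:6358214-6358289, plus strand: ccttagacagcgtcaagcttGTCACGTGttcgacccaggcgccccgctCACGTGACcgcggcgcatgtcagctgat

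Lamp1 had 4 copies of GTCACGTG, and Ctsd and Mcoln1 had 2 each. The promoters of Ctsc and Ctsh, the genes that rose, are shown whole, and neither motif was found in these 300 bases.
Ctsc, chr1:151440799-151441098, plus strand: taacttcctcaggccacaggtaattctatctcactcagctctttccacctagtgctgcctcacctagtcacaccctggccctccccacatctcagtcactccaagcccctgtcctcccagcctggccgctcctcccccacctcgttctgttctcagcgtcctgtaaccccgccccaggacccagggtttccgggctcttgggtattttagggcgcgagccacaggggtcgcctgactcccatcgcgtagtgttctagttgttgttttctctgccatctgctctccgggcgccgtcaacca
Ctsh, chr8:99488506-99488805, plus strand: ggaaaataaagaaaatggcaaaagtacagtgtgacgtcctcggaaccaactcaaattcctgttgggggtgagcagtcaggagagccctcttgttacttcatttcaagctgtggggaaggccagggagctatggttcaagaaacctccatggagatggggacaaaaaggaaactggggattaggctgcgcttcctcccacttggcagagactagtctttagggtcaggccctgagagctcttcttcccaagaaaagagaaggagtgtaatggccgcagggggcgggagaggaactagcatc

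The arrays were alike in depth of signal. Between 26312 and 28115 probes were well above background on each, the 75th percentile of the signal lay between 681 and 746, and 0 spots were saturated. All 4 arrays shared 1 slide, and array position along 1 axis of the slide ran with the treatment, so the effects of these cannot be told apart. Of 10 tested markers of oligodendrocyte precursor cells, 0 passed the test in limma. The brightest, Olig1, Sox10 and Olig2, had changes of 0.18, -0.08 and -0.01 on the log2 scale. An unadjusted p under 0.05 was reached by 2 of the 10, against 19.6% of features. These were Pdgfra, with a change of -0.37, and Matn4, with a change of 0.39. Of 11 tested markers of mature oligodendrocytes, Aspa fell by 1.55 and 10 did not pass, with a median of -0.64. An unadjusted p under 0.05 in limma was reached by 8 of the 11, all lower, against 19.6% of features. Both mimic arrays lay below both controls for 9 of them, against 23.9% of features. The summed signal of all 12 listed markers, tested or not, relative to the 75th percentile, was 935 and 963 in miR-neg and 657 and 638 in miR-125a-3p. Such a sum mainly follows the brightest genes, and Mbp was its largest part.

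Levels are log2 signals relative to each array's 75th percentile, and changes are the miR-125a-3p mean minus the miR-neg mean. In limma, fitted across all features with Benjamini-Hochberg adjustment at 0.05, 2 of the 31 lysosomal genes rose after the mimic, 0 fell and 29 did not pass. Over all features tested, 88 rose, which is 0.380%, and 71 fell, which is 0.307%. Quantile normalization turned that balance, with 37 higher and 46 lower. It also turned on probes above background on all 4 arrays (281 higher, 320 lower) and with normexp background correction (773 higher, 828 lower). An unadjusted p under 0.05 was reached by 5 of the 31 genes and by 19.6% of all features. Both mimic arrays lay above both control arrays for 9 of the 31 genes, against 29.0% of features, and below them for 7, against 23.9%, while 15 overlapped. These shares are close to those over all features. The median change was -0.03 over the 31 genes and 0.01 over all features, and 26 of the 31 changes were smaller than 0.25 in either direction.

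**Figure D1:**
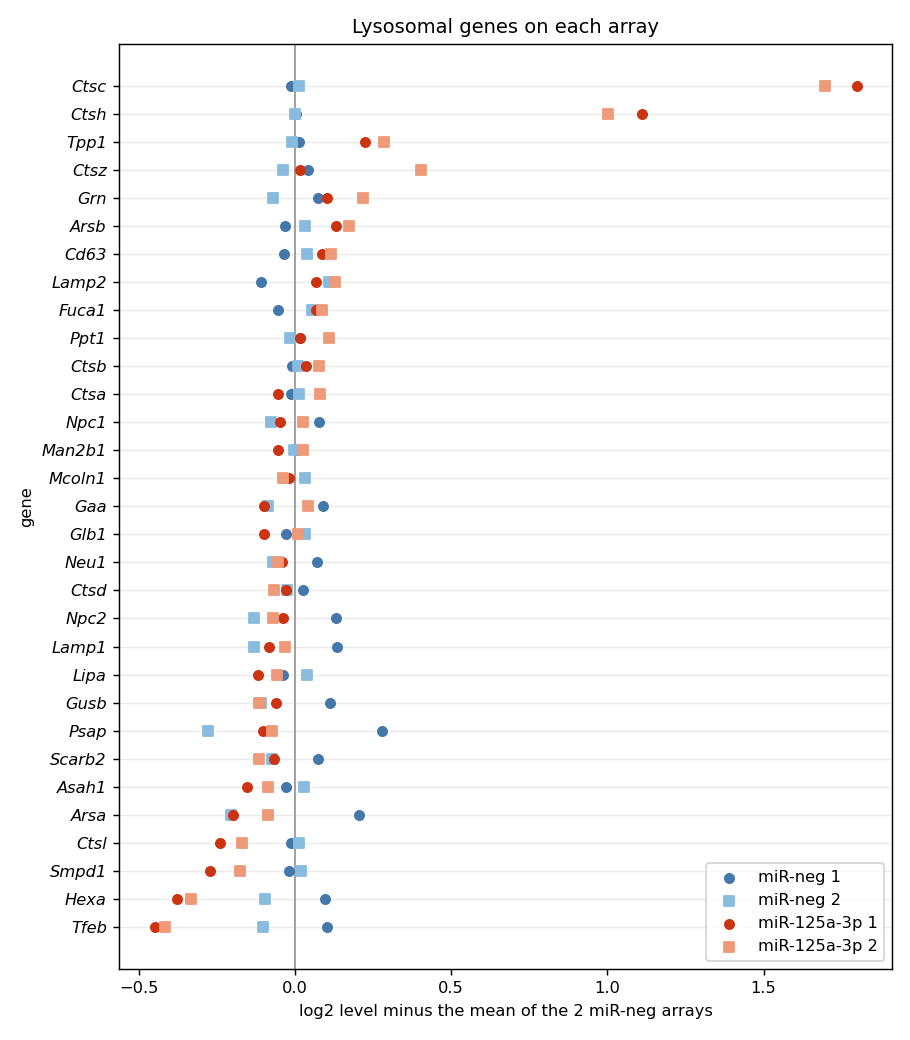
The log2 level of each of the 31 lysosomal genes on each array (1 point per array, blue miR-neg, red miR-125a-3p), minus the mean of the 2 miR-neg arrays, with genes ordered by change. Ctsc and Ctsh stand apart at 1.75 and 1.06, and the other genes lie between -0.43 (Tfeb) and 0.25 (Tpp1).

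Among the cysteine cathepsins, the genes that rose were both dim. Cathepsin C, also known as dipeptidyl peptidase I, trims dipeptides from protein ends and activates the serine proteases of immune cell granules. The processed signal of Ctsc was 53.9 and 50.0 in the controls, whereas it was 178 and 169 after the mimic. Both mimic arrays were far above both control arrays. Ctsc rose by 1.75 on the log2 scale (SE 0.08, n = 2 per group, adjusted p = 0.0344), or 3.36-fold, and 0.453% of all features had a change of that size or larger. Normexp background correction, with an offset of 50 added to the signals, gave a smaller rise of 1.01 (adjusted p = 0.000152 in limma). An offset of that size draws the log2 changes of dim probes towards 0 by construction.

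Cathepsin H is an aminopeptidase of the same family, known for its part in surfactant protein processing in lung. Its gene Ctsh had signals of 140 and 128 in miR-neg and 284 and 269 in miR-125a-3p. The groups were apart by much more than the arrays within them. Ctsh rose by 1.06 (SE 0.08, n = 2 per group, adjusted p = 0.0420), or 2.08-fold. Under quantile normalization the change was 1.05 and its adjusted p 0.0509. With the replicate number as a block, neither call held (adjusted p = 0.0774 for Ctsc and 0.104 for Ctsh), although the changes are the same by construction. Both calls were also lost without the filter on dim probes (adjusted p = 0.229 and 0.243). Leaving out any 1 array ended both calls too, with changes between 1.70 and 1.80 for Ctsc and between 1.00 and 1.11 for Ctsh.

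The other cysteine cathepsins did not pass. Cathepsin S, a protease of antigen-presenting cells that also works at neutral pH, was not well above background on either control array and was so on 1 of the 2 mimic arrays. Its gene Ctss had signals of 6.35 and 3.75 in miR-neg and 22.6 and 15.4 in miR-125a-3p. Both mimic signals lay above both control signals. No fold is given, since 3 of its 4 signals were not well above background. Ctss was outside the main test, and in a limma fit over all probes its adjusted p was 0.302.

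Ctsb, which encodes the abundant cathepsin B, had levels of 5.71 and 5.73 in miR-neg and 5.76 and 5.80 in miR-125a-3p, and had a change of 0.05 (95% interval -0.15 to 0.26). Cathepsin L, a broad endopeptidase, was the only tested cysteine cathepsin gene below 0. Ctsl levels were 4.02 and 4.04 in the controls and 3.79 and 3.86 after the mimic, a change of -0.21 (adjusted p = 0.268). The groups did not overlap, although the interval reached from -0.42 to 0.01. Ctsz, for the carboxypeptidase cathepsin Z, was at -3.09 and -3.17 in miR-neg and at -3.11 and -2.72 in miR-125a-3p, so its groups overlapped. Ctsk, for the collagen-degrading cathepsin K of osteoclasts, was near background, with signals from 13.7 to 17.7.

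Microglia and macrophages are rich in cathepsins. Of 18 of their markers 15 were tested, and 1 passed in limma: C1qa, a complement gene, rose by 1.45 (SE 0.10, adjusted p = 0.0379). The other 14 did not pass. Of the 15, 12 lay above 0, against 12262 of all 23155 features, and 9 had an unadjusted p under 0.05, against 19.6% of features. C1qa signals were 31.8 and 26.1 in miR-neg and 74.2 and 82.4 in miR-125a-3p. Aif1 and Tyrobp, chosen after their values were seen, had changes of 1.56 and 1.36 and did not pass (adjusted p = 0.0514 and 0.0586). The 3 brightest of the list had changes near or below 0. Cx3cr1, P2ry12 and Cd68 had changes of -0.06, 0.00 and -0.28, and Ptprc was well above background on no array. The summed signal of the 18 markers, relative to the 75th percentile, was 4.38 and 4.93 in miR-neg and 5.05 and 5.60 in miR-125a-3p. Cx3cr1, P2ry12 and Cd68 made up most of this sum, so it says little on the dimmer markers. The part of these cells in the rise of Ctsc and Ctsh was not tested, and in such bulk samples more cells of a type and more RNA per cell cannot be told apart.

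Of 14 tested astrocyte markers, Aldh1l1 rose by 1.90 and 13 did not pass, while 12 lay above 0. An unadjusted p under 0.05 in limma was reached by 8 of them, 7 higher and 1 lower, against 19.6% of features. Both mimic arrays lay above both controls for 11 of the 14, against 29.0% of features. The brightest, Aldoc, Slc1a3 and Atp1b2, had changes of 0.10, 0.32 and 0.17. The summed signal of all 15 listed astrocyte markers, tested or not, was 210 and 223 in the controls and 240 and 246 after the mimic. Aldoc alone made up most of this sum. Of 7 tested markers of fibroblasts, pericytes and endothelium, Tagln rose by 1.21 and 6 did not pass. Above 0 lay 6, against 12262 of all 23155 features, and 5 had an unadjusted p under 0.05 in limma, against 19.6%. Both mimic arrays lay above both controls for 6, against 29.0% of features, and below them for 1, against 23.9%. Kdr, the brightest, was the lower gene, with a change of -0.17. The summed signal of all 12 listed markers, tested or not, was 0.884 and 0.979 against 1.28 and 1.43. Of 9 tested neuronal markers, 0 passed (2 at an unadjusted p under 0.05 in limma, against 19.6% of features). Both mimic arrays lay above both controls for 5, against 29.0% of features, and below them for 0, against 23.9%. The summed signal of all 10 listed was 12.1 and 13.3 against 13.7 and 12.9. The part of these cells was not tested either.

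**Figure D2:**
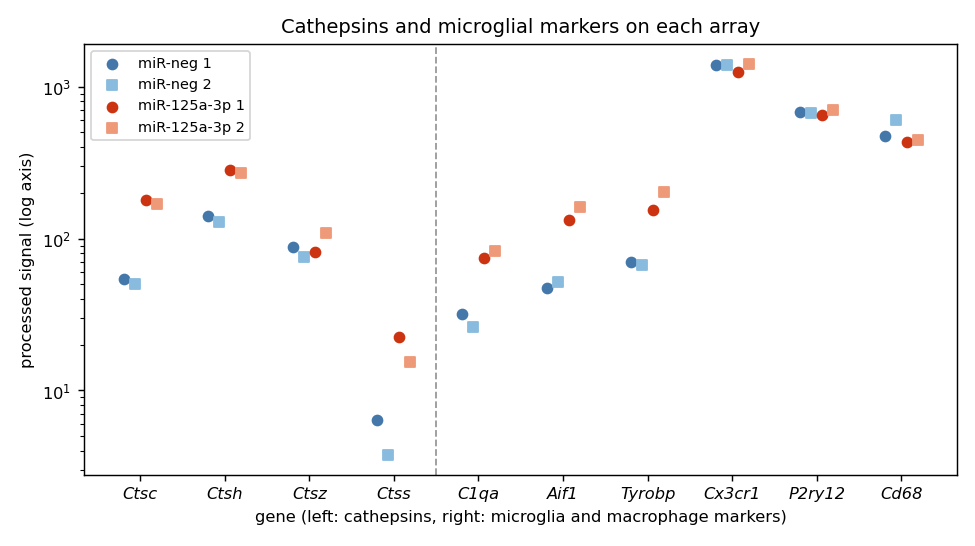
Processed signal (log axis) of 4 cathepsin genes, left of the dashed line, and 6 microglia and macrophage markers, right of it, on each array (blue miR-neg, red miR-125a-3p). Ctsc, Ctsh, Ctss, C1qa, Aif1 and Tyrobp are higher on both mimic arrays, and Cd68 is lower on both. Ctsz, Cx3cr1 and P2ry12 overlap between the groups.

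The serine and aspartic proteases gave 0 calls in 3 genes (1 at an unadjusted p under 0.05 in limma). Ctsd encodes cathepsin D, the main aspartic protease of lysosomes, and its probe was printed in 10 spots. Its levels were 5.71 and 5.66 in miR-neg and 5.65 and 5.61 in miR-125a-3p, a change of -0.05 (95% interval -0.26 to 0.16). Ctsa encodes protective protein, a carboxypeptidase that stabilises beta-galactosidase and neuraminidase, and it had a change of 0.01. Tpp1, for tripeptidyl peptidase 1, a serine protease that is lost in a childhood neuronal ceroid lipofuscinosis, was at 1.71 and 1.69 in the controls and 1.92 and 1.98 after the mimic. Both mimic arrays were higher, and the change of 0.25 (SE 0.08) did not pass (adjusted p = 0.204). Ctse, for the aspartic protease cathepsin E, had signals between 3.78 and 5.22.

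None of the 7 tested glycosidase genes passed in limma, and 1 of them, Hexa, had an unadjusted p under 0.05. Hexa encodes the alpha subunit of beta-hexosaminidase, which degrades GM2 ganglioside. Its levels were 0.02 and -0.18 in miR-neg and -0.46 and -0.41 in miR-125a-3p. The mimic arrays lay below both controls, and the change was -0.36 (SE 0.10, adjusted p = 0.191). The other glycosidases were nearly level. Glb1 (beta-galactosidase), Gaa (which degrades glycogen), Man2b1 (alpha-mannosidase), Neu1 (a sialidase), Gusb (beta-glucuronidase) and Fuca1 (alpha-fucosidase) had changes between -0.09 and 0.08.

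The sulfatase genes Arsa and Arsb both did not pass. Arsa, for arylsulfatase A, which breaks down the myelin lipid sulfatide, was at -0.64 and -1.05 in the controls and -1.05 and -0.94 after the mimic. Its groups overlapped, with a change of -0.14 and a wide interval from -0.60 to 0.31. Arsb, whose enzyme removes sulfate from dermatan sulfate, had a change of 0.15 (adjusted p = 0.378).

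Among the 5 genes of lipid breakdown, 0 passed and 0 had an unadjusted p under 0.05 in limma. Smpd1 encodes acid sphingomyelinase, which turns sphingomyelin into ceramide. Its levels were 5.50 and 5.54 in miR-neg and 5.25 and 5.34 in miR-125a-3p, so the groups did not overlap, and it had a change of -0.23 (95% interval -0.45 to 0.00, adjusted p = 0.257). Asah1 (acid ceramidase), Lipa (lysosomal acid lipase) and Ppt1, for the enzyme that removes palmitate from proteins, had changes of -0.12, -0.09 and 0.06. Psap encodes prosaposin, the precursor of the saposins that present sphingolipids to their hydrolases. It had the widest gap between arrays of a group, at 3.80 and 3.24 in the controls against 3.42 and 3.45, and its change of -0.09 had an interval from -0.66 to 0.48.

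Of the 9 genes for membrane proteins, cholesterol transport and regulation, 0 passed in limma, and Tfeb had an unadjusted p under 0.05. Tfeb levels were 0.30 and 0.09 in miR-neg and -0.25 and -0.22 in miR-125a-3p. Both mimic arrays were lower, by more than the gap between the controls, and the change was -0.43 (SE 0.10, adjusted p = 0.151). Tfeb passed with a variance trend (adjusted p = 0.0239) and with normexp (change -0.40, adjusted p = 0.0253). The genes with GTCACGTG in the promoters shown, Lamp1, Ctsd, Glb1, Gaa and Mcoln1, had changes of -0.06, -0.05, -0.04, -0.03 and -0.03, and the 19 measured genes whose promoters lacked the motif had a median of -0.01. A match is a description and does not show binding.

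Lamp1 and Lamp2, the heavily glycosylated proteins that coat the lysosomal membrane, had changes of -0.06 and 0.10, and a second Lamp2 probe had 0.09. Cd63, a tetraspanin of late endosomes and exosomes, had a change of 0.10, and Scarb2, the receptor that carries glucocerebrosidase to lysosomes, had -0.09. Npc1 and Npc2, which hand cholesterol out of the lysosome, had changes of -0.01 and -0.05. Mcoln1, a calcium channel of the lysosomal membrane, was at 3.11 and 3.18 in miR-neg and 3.13 and 3.11 in miR-125a-3p. Grn, for progranulin, a secreted glycoprotein that lysosomes cleave into granulins, was at 2.74 and 2.59 in the controls and 2.77 and 2.88 after the mimic, a change of 0.16 (adjusted p = 0.442).

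**Figure D3:**
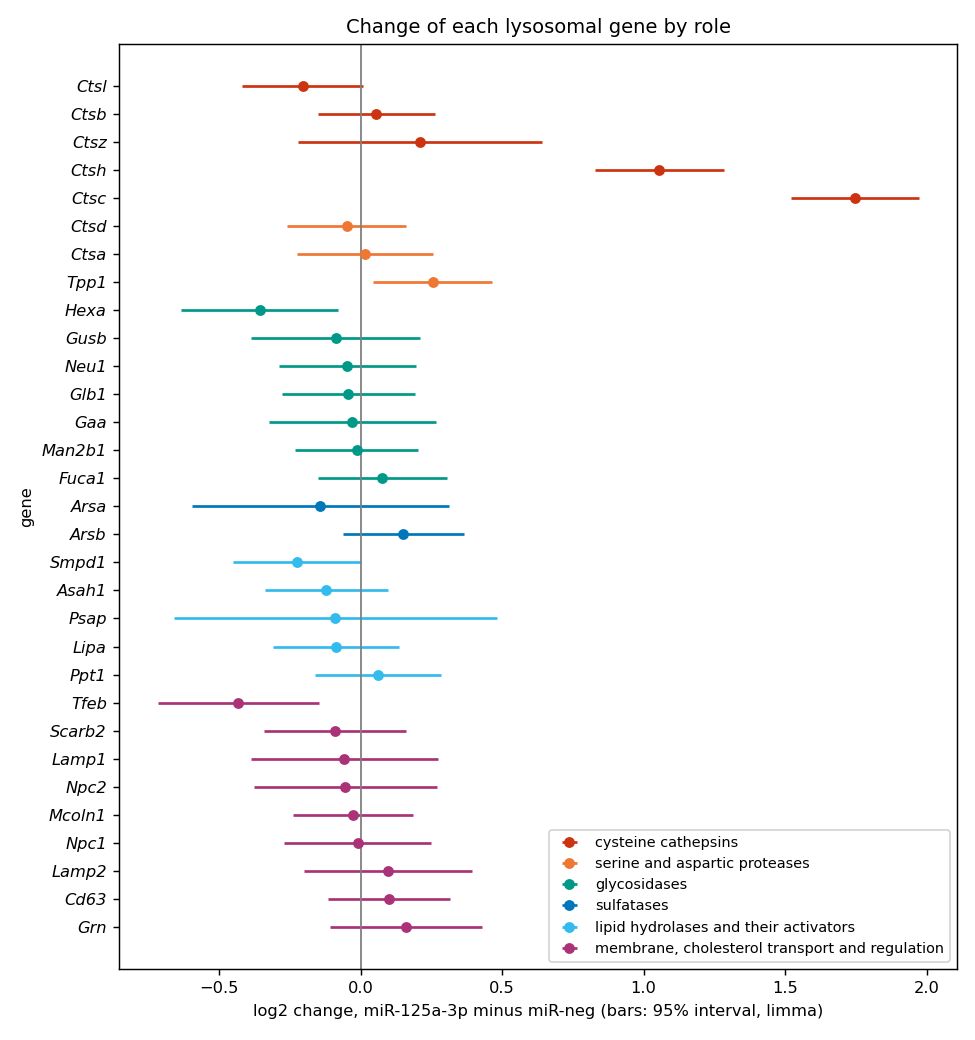
The log2 change of each of the 31 genes (points) with its 95% interval from limma (bars), grouped and coloured by role. The intervals of Ctsc and Ctsh lie above 0.5, and 24 of the 31 lie between -0.5 and 0.5.

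The intervals show which sizes of change these arrays leave room for. The 95% interval of the change lay within 0.5 of 0 on the log2 scale for 24 of the 31 genes, which is 77.4%, and for 56.0% of all features. The 7 exceptions were Ctsc, Ctsh, Tfeb, Hexa, Arsa, Psap and Ctsz. The median size of change was 0.09 for the 31 genes and 0.15 for all features, while the median gap between arrays of a group was 0.08 (miR-neg) and 0.06 (miR-125a-3p) for these genes and 0.13 and 0.10 for all features.

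Further lysosomal genes from lists outside the 37 gave 0 calls in limma. Of 30 other hydrolases and activators, 0 passed, with a median of 0.06. An unadjusted p under 0.05 in limma was reached by 5 of the 30, against 19.6% of features. Both mimic arrays lay above both controls for 10, against 29.0% of features, and below them for 6, against 23.9%. The smallest p belonged to Smpdl3a, an acid sphingomyelinase-like phosphodiesterase gene, at -1.95 and -1.82 in miR-neg and -0.77 and -0.90 in miR-125a-3p, a change of 1.05 (adjusted p = 0.0514). Next came Lgmn, for the asparaginyl protease legumain, Dnase2, for a lysosomal DNase, and the acid phosphatase gene Acp2, at -0.43, 0.32 and -0.48.

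The proton pump that acidifies lysosomes was represented by 18 subunit genes, of which 0 passed in limma (median 0.07). An unadjusted p under 0.05 was reached by 6 of them, 3 in each direction, against 19.6% of features. Atp6v1b2 was at 3.17 and 2.98 in miR-neg and 2.38 and 2.42 in miR-125a-3p, a change of -0.68 (adjusted p = 0.0813). Atp6v0a1 was at -0.05 and -0.20 in miR-neg and 0.42 and 0.48 in miR-125a-3p, a change of 0.58 (adjusted p = 0.0923). Atp6v0a2 and Atp6v0e1 had changes of -0.38 and -0.29. These 4 subunits are those with the smallest p. Over all 18, both mimic arrays lay above both controls for 8, against 29.0% of features, and below them for 3, against 23.9%, and 7 overlapped.

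Of 28 genes for enzyme sorting, other membrane proteins and channels, 0 passed in limma (median -0.07). Cln8 alone had an unadjusted p under 0.05, against 19.6% of features. For 12 of the 28, both mimic arrays lay below both controls, against 23.9% of features. They lay above for 8, against 29.0%, and 8 overlapped. Cln8, for a protein that carries lysosomal enzymes out of the endoplasmic reticulum, had a change of -0.30, Ostm1 0.22, the chloride-proton exchanger gene Clcn7 -0.41 and the sorting receptor gene Igf2r -0.22. Of 32 genes for TFEB relatives, nutrient sensing and autophagy, 0 passed in limma (median -0.06). An unadjusted p under 0.05 was reached by 5, 1 higher and 4 lower, against 19.6% of features. Both mimic arrays lay below both controls for 16 of the 32, against 23.9% of features. They lay above for 6, against 29.0%, and 10 overlapped. Vps39, of a complex that tethers vesicles to lysosomes, was at -0.40 and -0.43 in miR-neg and at -0.93 on both mimic arrays, a change of -0.52 (adjusted p = 0.0794). Plekhm1, Atg5 and Mtor had changes of -0.35, -0.44 and 0.44. Of 3 tested cathepsin inhibitor genes, 0 passed and 0 had an unadjusted p under 0.05, with Cst3 (cystatin C) at 0.27, Cst6 at -0.09 and Cstb at 0.02.

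**Figure D4:**
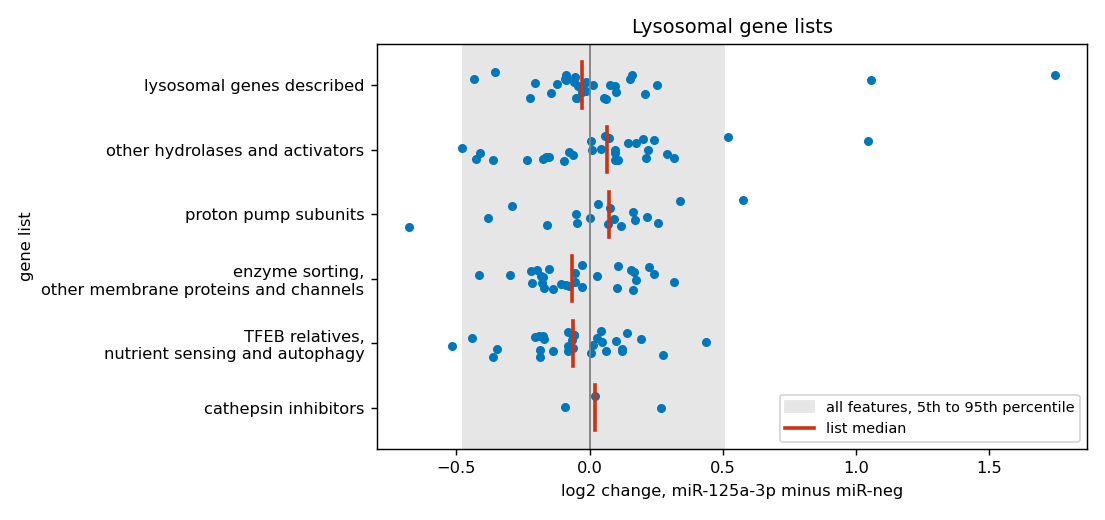
The log2 change of each tested gene (points) in the 31 lysosomal genes described and 5 further lysosomal lists, with the list median as a red line and the 5th to 95th percentile of all features, -0.47 to 0.50, shaded. Medians lie between -0.07 and 0.07.

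**Figure D5:**
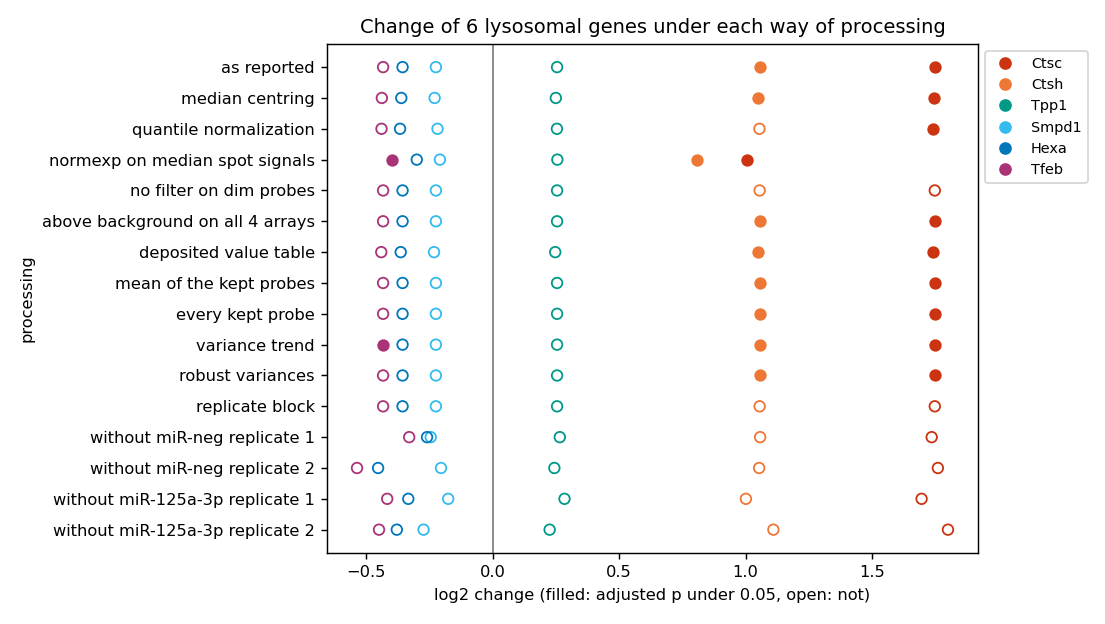
The log2 change of 6 lysosomal genes under the reported processing and 15 alternatives, with filled points where the adjusted p was under 0.05. The changes of all 6 keep their sign, and Ctsc drops to 1.01 with normexp. The filters, probe summaries, variance models and replicate block leave these 6 changes unaltered by construction. Filled points for Ctsc and Ctsh are absent without a filter on dim probes, with the replicate block and with any array left out. For Ctsh they are also absent under quantile normalization.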

How the data were processed

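Expression was measured on 4 Agilent 1-colour arrays. The deposited scanner files hold intensity values. Agilent Feature Extraction, version 10.7.3.1 by the submitters' processing notes, subtracted background and corrected a spatial trend, per the file headers, and set flags (0 or 1) for spots well above background. The deposited value table holds log2 values that differ from log2 of these intensities by a single constant on each array.

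Control and outlier spots were left out, replicate spots averaged as log2, and each array's 75th percentile subtracted. Of 45598 probes, 65 were left out for flags and 27250 kept as well above background on at least 2 arrays. RefSeq accessions, paired with symbols through a GRCr8 table, named 21109 probes (46.3%). The brightest probe stood for each of 23155 features, and other probes kept their own identifiers. Array coordinates are not given.

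The comparison used limma 3.58.1 under R 4.3.3 (two-sided, Benjamini-Hochberg over all features), tested on simulated data. With 2 samples a group, an exact permutation test reaches at best p = 0.333. No score over the genes was tested. Replicate numbers were not used in the main fit. Named genes are all 37, up to 4 per further list by smallest p, and the passing and 3 brightest markers per list, with exceptions stated. The genes and lists were chosen with earlier results of these data known. The alternatives were scaling, background correction, filters, the value table, probe summaries, variance models, the replicate block and leaving out each array. Slide position along 1 axis equals the replicate number, so both share 1 fit.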

Additional observations from a re-analysis of the deposited data

How the results depend on the processing

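The count of features past the threshold was 159 as reported. It was 83 under quantile normalization, 601 on probes above background on all 4 arrays, 2037 with a variance trend and 1601 with normexp on median spot signals, an alternative chosen after seeing the data because the files hold no mean spot signal. In limma it was 0 without a filter on dim probes (3963 at an unadjusted p under 0.05), 0 with the replicate block (3948) and ranged from 0 to 0 with 1 array left out (2767 to 4124). That fit lets the single array of a group borrow the other group's spread. The 2 lysosomal calls became 1 under quantile normalization (Ctsc), 0 without the filter, 0 with the replicate block and 0 to 0 with 1 array left out, where 4 (no filter), 4 (block) and 2 to 6 of the 31 genes had an unadjusted p under 0.05. The count was 3 with normexp and with a variance trend, where Tfeb was added. What causes these differences was not tested. The median of the 31 genes stayed between -0.05 and 0.02 in all 15 alternatives. It lay above 0 without miR-neg replicate 1 (0.02) or without miR-125a-3p replicate 1 (0.01). With the filters, variance models and replicate block it stayed at -0.03 by construction, since these leave the changes as they are. The probe summaries altered only Lamp2. These alternatives therefore say nothing on how stable the median is. Changes of sign occurred only in genes that did not pass, 9 of them without miR-neg replicate 1. Across features, arrays with the same number deviated from their group means with a correlation of 0.0505, which does not show whether the numbers pair the samples. The planned normexp on mean spot signals was not run.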

Other observations

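Probes for 7 of the lysosomal genes, Ctsa, Ctsd, Ctsl, Cd63, Man2b1, Grn and Fuca1, were printed in 10 spots on each array. Such spots show the spread within an array and leave out differences that arise between arrays. The SD of the log2 signal over the spots of 1 array was between 0.02 and 0.06 for these genes. The gap between the arrays of a group reached 0.14 for Grn in miR-neg and 0.13 for Ctsa in miR-125a-3p. For Ctsl the change of -0.21 was larger than both its gaps (0.03 and 0.07) and its largest spot SD (0.05), and it did not pass in limma (adjusted p = 0.268).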
